A study of Mus musculus with 12 samples.

Results

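The genes described here are the phosphofructokinase step of glycolysis and its regulators: the 3 subunit genes of phosphofructokinase-1 (Pfkm, Pfkl and Pfkp), the 4 genes of the bifunctional PFKFB enzymes (Pfkfb1 to Pfkfb4), the muscle fructose bisphosphatase Fbp2 and the aldolase Aldoc. They were chosen by gene name, 9 in all, and 8 of them were analysed among 26967 genes listed at either day. Fbp2 was not analysed here. Their RNA was measured by RNA-seq in C2C12 cells, a mouse myoblast line that fuses into myotubes in low serum, in 4 groups of 3 libraries. Mutant cells (KI) carried a homozygous PGAM2-K176R knock-in of the muscle phosphoglycerate mutase and were 1 clone made by CRISPR editing, so the mutation and the clone cannot be told apart, and wild type (WT) cells were the unedited line. The groups were mutant cells after 4 days in differentiation medium with horse serum (mutant d4), WT cells at the same stage (WT d4), mutant cells in growth medium with fetal bovine serum (mutant d0) and WT cells in growth medium (WT d0).

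Phosphofructokinase-1 commits glucose to glycolysis by phosphorylating fructose 6-phosphate, and its M subunit is the form of mature skeletal muscle, L that of liver and P that of platelets and many dividing cells. The PFKFB enzymes make and break fructose 2,6-bisphosphate, the strongest activator of phosphofructokinase-1; PFKFB3 and PFKFB4 are the isoforms that respond to hypoxia and growth signals, while PFKFB1 is the liver and muscle isoform and PFKFB2 the heart isoform. Aldolase C, the brain form of aldolase, cuts the product of phosphofructokinase-1.

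Libraries held 16098407 to 21412560 reads assigned to genes. Levels are given in FPKM as deposited, fragments scaled to gene length and sequencing depth. The days were scaled separately, but rescaling all 12 libraries together with edgeR's TMM method changed the FPKM of a library by a factor of only 0.997 to 1.02, so levels are set side by side across days, while the tests across days used reads. All 12 markers of myoblasts and myotubes were detected at a mean of 0.5 FPKM or more in both d4 groups, with summed levels of 2309 to 2456 FPKM in mutant d4 libraries, against 7758 to 8029 FPKM in WT d4 libraries; 8 of 12 were detected in mutant d0 libraries and 11 of 12 in WT d0 libraries. Myog, the myogenin factor of differentiation, was at 74.7 to 80.2 FPKM in mutant d4 libraries and at 820 to 878 FPKM in WT d4 libraries. At d0 it was at 0.409 to 0.809 FPKM in mutant libraries and at 19.1 to 26.1 FPKM in WT libraries. Pgam2, the edited gene, was at 10.3 to 10.9 FPKM in mutant d4 libraries and 122 to 132 FPKM in WT d4 libraries. At d0 Pgam2 was higher in mutant libraries (3.97 to 6.76 FPKM) than in WT libraries (2.71 to 3.15 FPKM). The 8 markers of fibroblasts and smooth muscle summed to 460 to 471 FPKM in mutant d4 libraries and to 877 to 929 FPKM in WT d4 libraries, and at d0 to 182 to 223 FPKM in mutant libraries and 501 to 664 FPKM in WT libraries. Of the 6 pancreatic endocrine markers, 3 were detected in mutant d0 libraries and 0 in WT d0 libraries, with sums of 6.33 to 15.2 FPKM and 0.0367 to 0.172 FPKM, and at d4 the sums were 4.52 to 5.54 FPKM in mutant libraries and 1.92 to 3.76 FPKM in WT libraries. The 5 hepatocyte markers summed to 9.19 to 21.8 FPKM in mutant d4 libraries and 3.14 to 10.7 FPKM in WT d4 libraries, and to at most 0.140 FPKM at d0. The 8 neuron and glia markers summed to 8.70 to 9.62 FPKM in mutant d4 libraries and 4.28 to 4.85 FPKM in WT d4 libraries, and overlapped at d0, with Rbfox3 and Aqp4 at 0 reads in every group. The 6 markers of blood and endothelium summed to 1.89 to 1.98 FPKM in mutant d4 and 0.675 to 1.24 FPKM in WT d4 libraries, and to 5.67 to 7.31 FPKM in mutant d0 and 3.13 to 3.43 FPKM in WT d0 libraries. The 4 adipocyte markers summed to at most 0.0965 FPKM in any library. In bulk RNA, fewer cells of a type and less RNA per cell cannot be told apart. A gene was called where its adjusted p was under 0.05 and its absolute log2 fold change above 1. The labels do not say whether libraries of a group came from separate cultures, the methods call replicates biological but give fewer of them per condition than the labels, and p-values reflect only how far these libraries spread.

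Pfkm, the muscle subunit (chr15:98092589-98132451 of mm10, plus strand, the position of GENCODE M21), is the gene the results turn on. Its RNA rose during differentiation in WT cells, and by the test of the difference it changed less in mutant cells. RefSeq (GRCm38.p6) gives it 4 start sites. The 250 bases before the first and the last of them, at chr15:98092339-98092588 and chr15:98111810-98112059, both plus strand and both outside annotated exons, are shown because myogenic factors bind E-boxes. Capitals mark each E-box, the letters CANNTG on either strand, a pattern that reads the same on both strands.

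Pfkm first start: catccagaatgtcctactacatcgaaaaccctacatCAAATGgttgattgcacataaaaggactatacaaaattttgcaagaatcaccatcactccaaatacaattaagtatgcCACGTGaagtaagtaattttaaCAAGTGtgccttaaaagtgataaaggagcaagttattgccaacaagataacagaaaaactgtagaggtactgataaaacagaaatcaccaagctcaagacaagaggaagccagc
Pfkm last start: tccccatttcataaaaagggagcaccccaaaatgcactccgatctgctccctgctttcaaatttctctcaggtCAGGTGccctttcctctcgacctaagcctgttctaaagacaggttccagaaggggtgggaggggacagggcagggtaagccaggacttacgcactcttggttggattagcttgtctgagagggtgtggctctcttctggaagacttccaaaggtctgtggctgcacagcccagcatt

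The first window held 3 E-boxes and the last 1. At least 1 E-box stood in 66.2% of 32851 RefSeq windows of the same length, and CAGCTG, the E-box with a GC centre, in 13.0% of them and in neither window printed here. A match is only a string of letters, and gene-level values do not say which start was used. Reads that could be shared with a neighbouring gene make the Pfkm values less certain: Senp1 overlaps it on the opposite strand and Gm26513 on the same strand, and 8.83% of the 50-base stretches of its transcripts were also in Gm26513.

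In mutant d4 libraries (replicates 1, 2 and 3), Pfkm was at 35.4, 35.8 and 34.5 FPKM, against 141, 144 and 156 FPKM in WT d4 libraries. Every WT d4 library was thus above every mutant d4 library, by more than the width of either group. In mutant d0 libraries Pfkm was at 19.3, 22.9 and 21.7 FPKM, and in WT d0 libraries at 24.2, 21.9 and 22.1 FPKM, and these groups overlapped. At d4 Pfkm was lower in mutant than in WT cells, with a log2 fold change of -2.03 (limma, log2(FPKM + 1) scale, standard error, SE, 0.04, adjusted p = 7.20e-08). The mean was 35.2 ± 0.68 FPKM in mutant cells and 147 ± 8.08 FPKM in WT cells (SD, n = 3 each). At d0 its difference did not pass the test (log2 fold change -0.12, SE 0.09, adjusted p = 0.333, edgeR quasi-likelihood test). The myogenic markers moved with it at d4, with the sums given above; their part in the result was not tested.

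**Figure D1:**
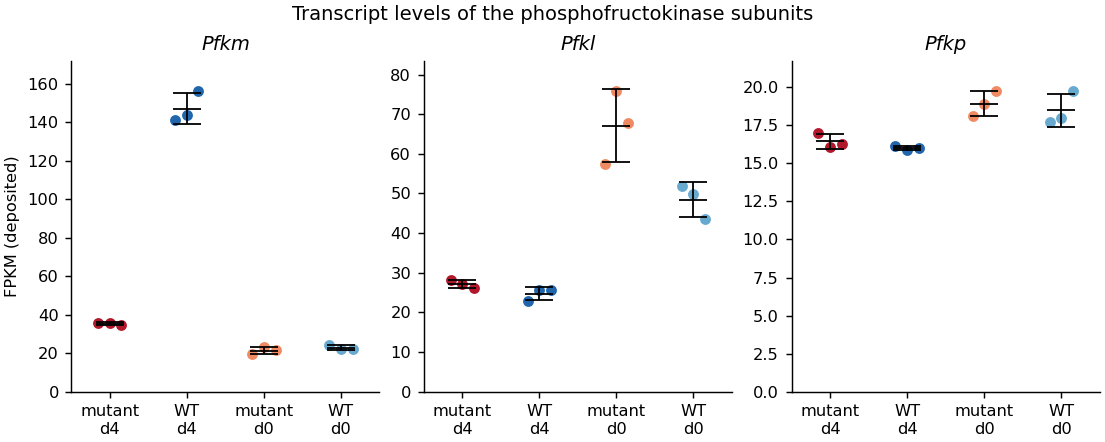
Levels of Pfkm, Pfkl and Pfkp in FPKM (vertical axis, from 0) in mutant d4, WT d4, mutant d0 and WT d0 libraries; points are the 3 libraries of a group, and bars give the mean and SD. For Pfkm the mutant d4 libraries sit at 34.5 to 35.8 FPKM and the WT d4 libraries at 141 to 156 FPKM, with the d0 libraries lower than both; Pfkl is highest in the mutant d0 libraries, and Pfkp lies between 15.9 and 19.8 FPKM throughout.

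Across days (d4 over d0), Pfkm had a log2 fold change of 0.79 in mutant cells (SE 0.08, adjusted p = 8.12e-08, edgeR), under the fold threshold, while in WT cells it rose by 2.76 on the log2 scale (SE 0.08, adjusted p = 6.51e-14). The difference of these changes, mutant minus WT, was -1.98 (SE 0.11, adjusted p = 2.04e-11, edgeR on all 12 libraries). It stayed called, in the same direction, under every alternative setting run.

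Pfkl, the liver subunit (chr10:77986947-78010083, minus strand), fell during differentiation in mutant cells and was the most abundant subunit RNA in both d0 groups. In mutant d4 libraries it was at 28.1, 27.1 and 26.0 FPKM and in WT d4 libraries at 22.8, 25.7 and 25.7 FPKM. Mutant d0 libraries had 57.5, 75.8 and 67.9 FPKM and WT d0 libraries 51.9, 49.8 and 43.5 FPKM. In FPKM the mutant libraries lay above the WT libraries at each day, by a narrow margin at d4, where the groups overlapped in CPM after TMM scaling (174 to 188 CPM in mutant and 153 to 175 CPM in WT libraries, CPM being reads scaled to library size). The d0 difference had a log2 fold change of 0.45 (SE 0.12, adjusted p = 0.00855, edgeR), under the fold threshold, and the d4 difference did not pass the test (0.13 on the log2(FPKM + 1) scale, SE 0.06, adjusted p = 0.0981, limma; 0.14, adjusted p = 0.0239 with edgeR on reads). Across days the log2 fold change was -1.25 in mutant cells (SE 0.09, adjusted p = 1.09e-09, called) and -0.90 in WT cells (SE 0.09, adjusted p = 1.57e-07, under the fold threshold). The difference between these changes was -0.35 (SE 0.13, adjusted p = 0.0310), also under the fold threshold.

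Pfkp, the platelet subunit (chr13:6579768-6648777, minus strand), lay between 15.9 and 19.8 FPKM in all 12 libraries. Its levels were 17.0, 16.1 and 16.3 FPKM in mutant d4 libraries and 16.2, 15.9 and 16.0 FPKM in WT d4 libraries, and 18.1, 18.9 and 19.7 FPKM in mutant d0 libraries and 17.7, 18.0 and 19.8 FPKM in WT d0 libraries. The genotypes overlapped at each day, and no comparison called it (log2 fold changes of 0.04 at d4 with limma, 0.01 at d0, -0.14 in each genotype across days, edgeR, adjusted p = 0.0574 for mutant and 0.118 for WT cells). It overlaps Pitrm1 on the opposite strand, and no source used here says if strand was used in counting, so its counts are uncertain.

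The 3 subunits therefore took different shares of the summed phosphofructokinase-1 RNA. In mutant d4 libraries Pfkm took 44.7% ± 0.67 of the summed FPKM, against 78.3% ± 0.68 in WT d4 libraries (SD, n = 3 each). Pfkl took 34.4% in mutant d4 libraries and 13.2% in WT d4 libraries, and 62.4% ± 1.92 in mutant d0 libraries and 53.9% ± 2.58 in WT d0 libraries. The order in FPKM at d4 was Pfkm, Pfkl, Pfkp in both genotypes. At d0 it was Pfkl, Pfkm, Pfkp, with Pfkm and Pfkp overlapping in mutant cells (19.3 to 22.9 and 18.1 to 19.7 FPKM) and not in WT cells. These orders depend on division by gene length. As shares of reads, Pfkp led in mutant d4 libraries (41.8 to 43.0%), then Pfkl (34.3 to 35.1%) and Pfkm (22.2 to 23.2%). In WT d4 libraries Pfkm led (55.5 to 57.4%), then Pfkp (23.6 to 25.8%) and Pfkl (18.1 to 19.8%). At d0 the order in reads was Pfkl, Pfkp, Pfkm. The sum of the 3 was 78.8 ± 1.90 FPKM in mutant d4 libraries and 188 ± 9.23 FPKM in WT d4 libraries, and 107 ± 11.5 FPKM in mutant d0 libraries and 89.7 ± 4.19 FPKM in WT d0 libraries. In the exact 2-sided permutation test over libraries no share could pass 0.05, since 3 against 3 cannot go below p = 0.1. The Pfkm share had that p in each of its 4 comparisons (adjusted p = 0.133 over the 40 tests of shares), with no overlap in any. The same held for the Pfkl share in each of its 4 comparisons and for most of the 40 tests, so it is not particular to Pfkm.

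**Figure D2:**
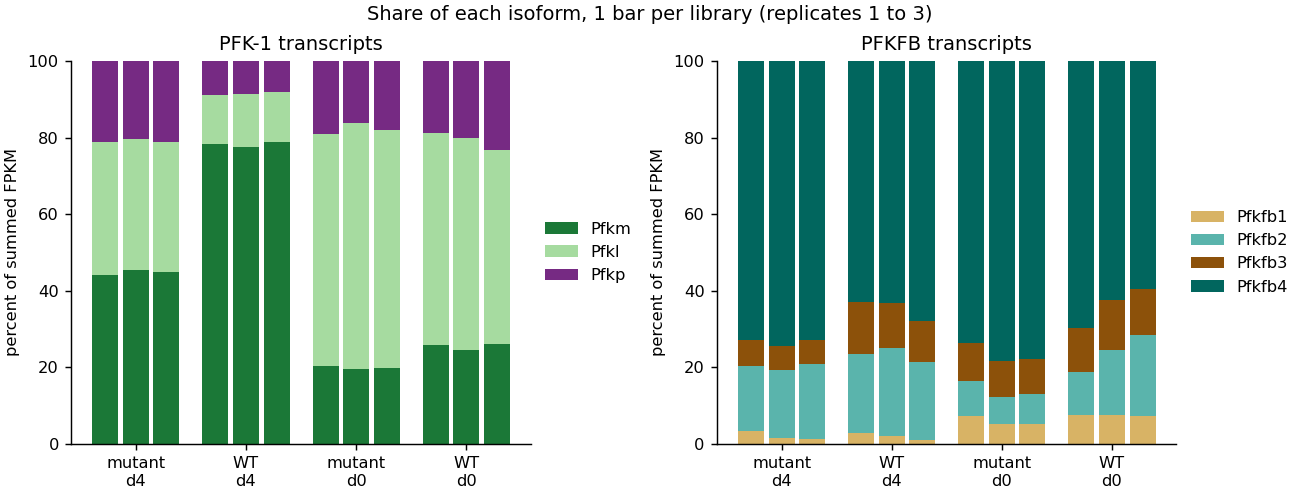
Percent of summed FPKM (vertical axis) taken by each phosphofructokinase-1 subunit gene on the left and each PFKFB gene on the right, 1 bar for each library, in mutant d4, WT d4, mutant d0 and WT d0 cells. Pfkm fills 44.0 to 45.3% of the mutant d4 bars and 77.6 to 78.9% of the WT d4 bars; Pfkfb4 fills more than any other PFKFB gene in every bar.

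Of the PFKFB enzymes, Pfkfb4 (chr9:108991778-109032228, plus strand) had the highest level in every group, and it lay higher in mutant than in WT libraries at each day. In mutant d4 libraries it was at 6.95, 6.95 and 6.06 FPKM, against 4.29, 3.90 and 4.08 FPKM in WT d4 libraries. Mutant d0 libraries had 10.6, 12.4 and 12.1 FPKM, against 6.86, 5.67 and 5.01 FPKM in WT d0 libraries. The genotypes did not overlap at either day. At d0 the log2 fold change was 0.98 (SE 0.12, adjusted p = 7.55e-05, edgeR), just under the fold threshold. It was 1.01 and called in the fit of all 12 libraries, and called at 1.13 without WT d0 replicate 1 and at 1.05 without mutant d0 replicate 1. At d4 it was 0.59 on the log2(FPKM + 1) scale (SE 0.07, adjusted p = 2.81e-04, limma) and 0.71 with edgeR on reads. Across days it was -0.75 in mutant cells (SE 0.09, adjusted p = 1.85e-06) and -0.45 in WT cells (SE 0.12, adjusted p = 0.00403, edgeR), neither past the fold threshold, and the difference between them did not pass the test (-0.31, adjusted p = 0.111). Markers of fibroblasts, pancreatic endocrine cells and blood also differed between genotypes at d0, with the sums given above, and their part in the Pfkfb4 and Aldoc differences was not tested.

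Pfkfb3, an isoform with strong kinase over phosphatase activity (chr2:11471433-11554077, minus strand), was called lower at d4 than at d0 in mutant cells. In mutant d4 libraries it was at 0.634, 0.598 and 0.536 FPKM and in WT d4 libraries at 0.919, 0.727 and 0.644 FPKM. In mutant d0 libraries it was at 1.41, 1.48 and 1.41 FPKM and in WT d0 libraries at 1.13, 1.19 and 1.01 FPKM. The mutant libraries were thus below the WT libraries at d4 and above them at d0, on 67 to 213 reads per library. Neither genotype difference passed the test. The difference was -0.15 at d4 on the log2(FPKM + 1) scale (adjusted p = 0.255, limma) and 0.34 at d0 (adjusted p = 0.0516, edgeR). At levels this low the added 1 shrinks the d4 value, which was -0.37 with edgeR on reads (adjusted p = 0.107). Across days the log2 fold change was -1.22 in mutant cells (SE 0.15, adjusted p = 1.26e-06, called) and -0.47 in WT cells (SE 0.18, adjusted p = 0.0291). The difference between these changes was -0.76 (SE 0.22, adjusted p = 0.00760, edgeR), under the fold threshold. Pfkfb3 overlaps Gm10851 on the opposite strand and Gm37975 on the same strand, so its counts are uncertain.

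Pfkfb2, the heart isoform (chr1:130689182-130729253, minus strand), was at 1.62, 1.67 and 1.62 FPKM in mutant d4 libraries, against 1.41, 1.42 and 1.21 FPKM in WT d4 libraries. In mutant d0 libraries it was at 1.33, 1.11 and 1.22 FPKM, against 1.11, 1.55 and 1.76 FPKM in WT d0 libraries, where the groups overlapped. No comparison called it; the change across days was 0.48 in mutant cells (SE 0.13, adjusted p = 0.00319) and -0.07 in WT cells (adjusted p = 0.757, edgeR), and their difference was 0.54 (SE 0.22, adjusted p = 0.0492). Of the 50-base stretches of Pfkfb2 transcripts, 15.9% were shared with Gm29427, which overlaps it on the same strand, or with Mms19. Pfkfb2 also overlaps Gm37163 on the same strand and Yod1 on the opposite strand, so its counts are uncertain.

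Pfkfb1, the liver and muscle isoform (chrX:150588229-150643878, plus strand), had the fewest reads: 44 over the 3 mutant d4 libraries and 27 over the 3 WT d4 libraries, with 193 in mutant d0 and 177 in WT d0 libraries. In FPKM it was at 0.320, 0.126 and 0.105 in mutant d4 libraries and at 0.182, 0.115 and 0.0630 in WT d4 libraries. Its d0 levels were 1.02, 0.825 and 0.803 FPKM in mutant libraries and 0.731, 0.679 and 0.614 FPKM in WT libraries. All 3 mutant d0 libraries lay above the WT d0 libraries, while the d4 groups overlapped. It was called lower at d4 than at d0 in both genotypes, with log2 fold changes of -2.18 in mutant cells (SE 0.35, adjusted p = 3.30e-05) and -2.38 in WT cells (SE 0.36, adjusted p = 2.94e-05, edgeR). Without mutant d4 replicate 1, which held 26 of the 44 reads, the change in mutant cells was -2.84. It did not pass the filter on low values for the d4 test. At d0 the genotype difference did not pass the test (0.37, adjusted p = 0.153), and the difference of the changes was 0.19 with an SE of 0.54. Pfkfb1 overlaps Apex2 on the opposite strand, and whether strand was used in counting is not known, so its low counts are uncertain.

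**Figure D3:**
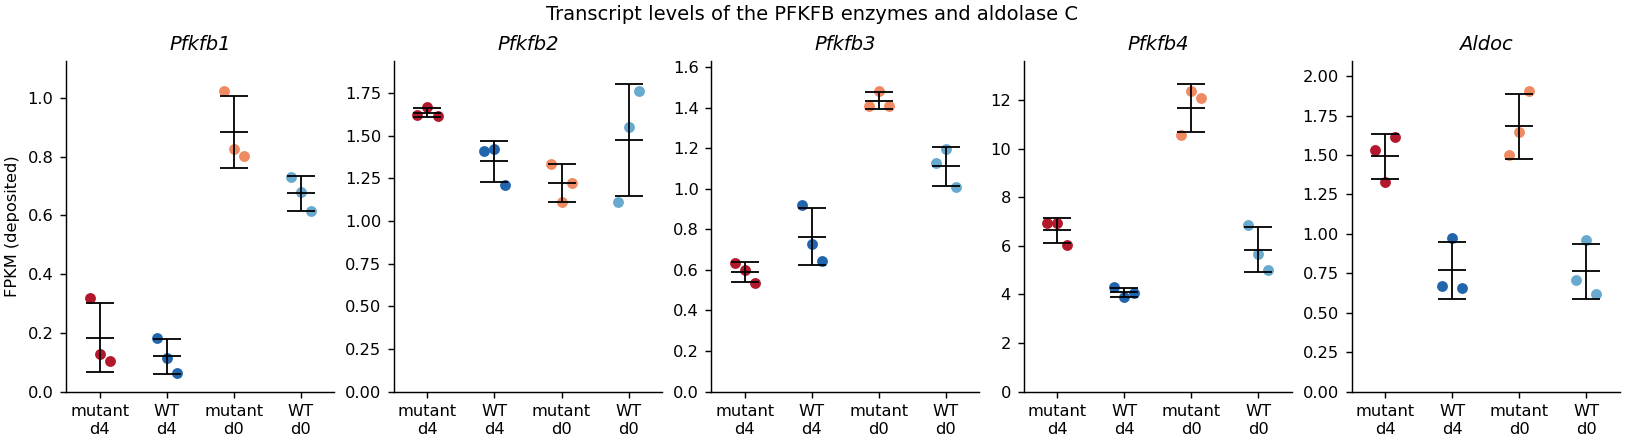
Levels of Pfkfb1 to Pfkfb4 and Aldoc in FPKM (vertical axes, each from 0 on its own scale) in mutant d4, WT d4, mutant d0 and WT d0 libraries; points are libraries, and bars give the mean and SD of 3. Pfkfb4 and Aldoc lie higher in mutant than in WT libraries at each day, and Pfkfb1 and Pfkfb3 lie lower at d4 than at d0.

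Summed over its 4 genes, the PFKFB level was 9.06 ± 0.65 FPKM in mutant d4 libraries and 6.32 ± 0.42 FPKM in WT d4 libraries, and 15.2 ± 0.78 FPKM in mutant d0 libraries and 9.11 ± 0.72 FPKM in WT d0 libraries (SD, n = 3 each). Pfkfb4 took 73.4% of the sum in mutant d4 libraries and 64.8% in WT d4 libraries. The order behind it at d4 was Pfkfb2, Pfkfb3, Pfkfb1 in both genotypes; at d0 it was Pfkfb3, Pfkfb2, Pfkfb1 in mutant cells, and in WT cells Pfkfb2 and Pfkfb3 overlapped (1.11 to 1.76 and 1.01 to 1.19 FPKM).

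Aldoc (chr11:78322968-78327781, plus strand) was low in all groups. In mutant d4 libraries it was at 1.53, 1.33 and 1.61 FPKM and in WT d4 libraries at 0.672, 0.977 and 0.659 FPKM. Mutant d0 libraries had 1.50, 1.64 and 1.91 FPKM and WT d0 libraries 0.708, 0.959 and 0.619 FPKM. Every mutant library was above every WT library at each day, on 34 to 108 reads per library. At d0 Aldoc was higher in mutant than in WT cells, with a log2 fold change of 1.11 (SE 0.21, adjusted p = 0.00137, edgeR). It was the single member called at that day, but at 0.98 without WT d0 replicate 3 it was not called. At d4 it was 0.50 on the log2(FPKM + 1) scale (SE 0.11, adjusted p = 0.00565, limma) and 0.95 with edgeR on reads (adjusted p = 0.00103), neither past the fold threshold. Of all aldolase RNA, Aldoc took 0.376% in mutant d4 libraries and 0.118% in WT d4 libraries, and 0.288% in mutant and 0.173% in WT libraries at d0. Aldoa took nearly all the rest.

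Counted over the members, 1 of 8 tested was called higher and 0 lower in mutant than in WT cells at d0 (3.03% of all 13920 genes tested were called higher and 9.21% lower), and 0 of 7 higher and 1 lower at d4 (1.76% and 5.98% of 13252 genes). Across days, 0 of 8 was called higher and 3 lower at d4 in mutant cells (17.3% and 17.1% of 13755 genes), and 1 higher and 1 lower in WT cells (12.6% and 13.0% of 14336 genes). For the difference between these changes, 0 was called higher and 1 lower in mutant cells (8.68% and 7.95% of 15114 genes). By adjusted p alone, 3 members were higher and 0 lower at d0 (all genes 20.4% and 23.9%), 2 and 1 at d4 (26.4% and 29.3%), 2 and 4 across days in mutant cells (36.8% and 38.4%), 1 and 4 in WT cells (29.9% and 32.6%), and 1 and 3 for the difference (21.9% and 23.3%). At an unadjusted p under 0.05, 4 were higher and 0 lower at d0 (all genes 24.4% and 27.7%), 2 and 1 at d4 (29.3% and 31.5%), 2 and 5 across days in mutant cells (37.5% and 39.1%), 1 and 4 in WT cells (31.6% and 34.3%), and 1 and 3 for the difference (25.5% and 26.3%), and the numbers called with DESeq2 equalled those of the tests above. The median log2 fold change of the members was 0.36 at d0 (all genes -0.02), 0.13 at d4 (0.0044), -0.45 across days in mutant cells (-0.0072), -0.30 in WT cells (-0.03) and -0.26 for the difference (0.01).

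**Figure D4:**
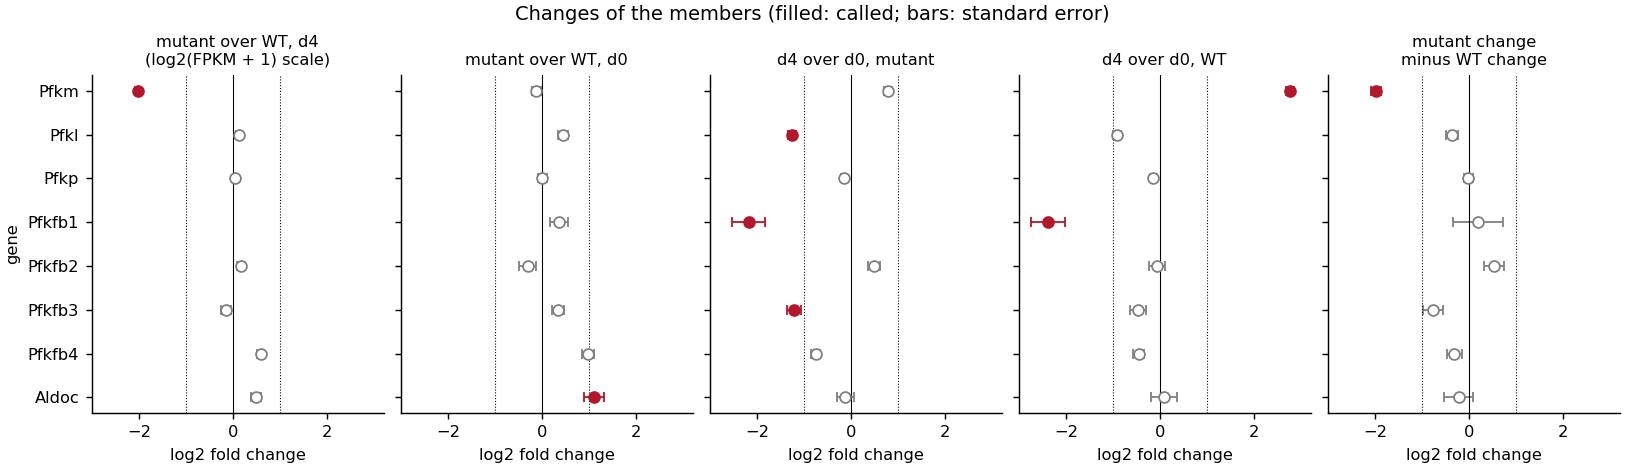
Log2 fold change (horizontal axis) of each gene in 5 comparisons: mutant over WT at d4 and at d0, d4 over d0 in mutant and in WT cells, and mutant change minus WT change. Filled points were called, bars are standard errors, and dotted lines mark a change of 1. Pfkm lies at -2.03 in the first panel and at 2.76 in the fourth. Pfkfb1 was not tested at d4.

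The other glycolysis genes, a list of 21 named genes, showed at d0 a median log2 fold change of 0.54 over 16 tested. Of these 16, 0 was called higher and 1 lower (all genes 3.03% and 9.21%), Eno2 (the neuronal enolase, -1.06, adjusted p = 9.41e-06, edgeR). By adjusted p alone 13 of 16 were higher and 1 lower in mutant cells at d0 (all genes 20.4% and 23.9%), and 2 of 17 higher and 9 lower at d4 (26.4% and 29.3%), with a median at d4 of -0.25 on the log2(FPKM + 1) scale. At an unadjusted p under 0.05 the numbers were 14 and 1 at d0 (all genes 24.4% and 27.7%) and 4 and 9 at d4 (29.3% and 31.5%), and DESeq2 called 0 higher at either day. At d4, 0 of 17 was called higher and 2 lower (all genes 1.76% and 5.98%): Pgam2 (-3.47 on the log2(FPKM + 1) scale, adjusted p = 5.81e-09) and Eno3, the muscle enolase (-2.39, adjusted p = 6.86e-08, limma). For the difference of the changes, 1 of 16 was called higher and 7 lower (all genes 8.68% and 7.95%), Pgam2 most (-4.39), then Eno3 (-2.77) and Ldhb (-1.59). Pfkm thus stood, at -1.98, between Eno3 and Ldhb.

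**Figure D5:**
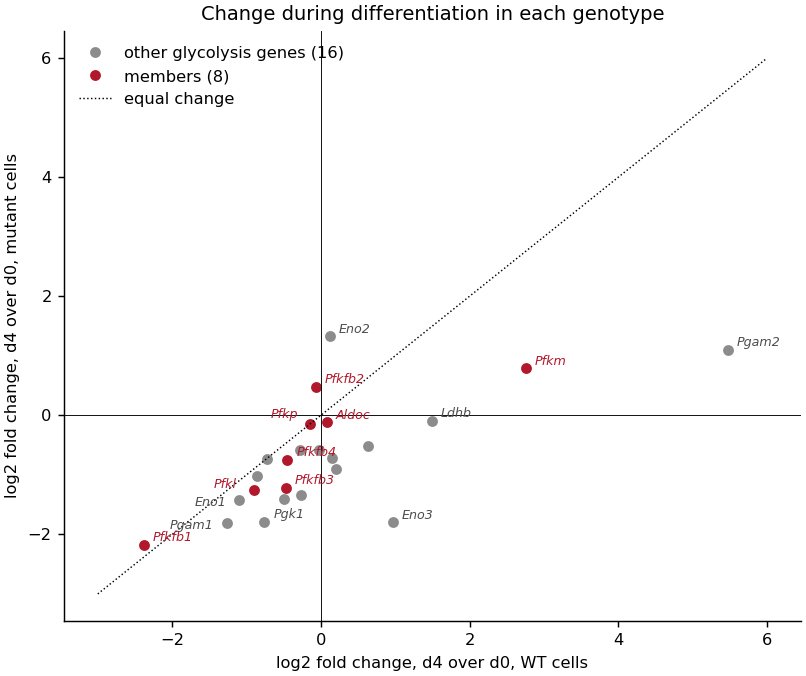
Log2 fold change of d4 over d0 in mutant cells (vertical axis) against that in WT cells (horizontal axis) for the 8 members and the 16 other glycolysis genes tested in both; the dotted line marks equal change. Pfkm, at 0.79 in mutant and 2.76 in WT cells, lies below the line, as do Pgam2, Ldhb, Eno3 and most of the other glycolysis genes. For the difference of the changes these 16 genes had a median of -0.905 (all genes 0.01). By adjusted p alone 11 of them were lower and 1 higher (all genes 23.3% and 21.9%).

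By root mean square difference of profiles centred on their means over the 12 libraries, on the log2(CPM + 0.5) scale and among 10318 genes, the gene most like Pfkm was Wnt9a, at 0.140, followed by Vamp5 at 0.189 and Pla2g16 at 0.232, where Pfkm itself ranged over 3.01 log2 units. The nearest to Pfkl were U2af2 (0.0774), Trp53 (0.0884) and Lrwd1 (0.0921), and to Pfkfb4 Zfp703 (0.111), Pes1 (0.139) and Drg1 (0.145). Those of Pfkp, Pfkfb2 and Pfkfb3 are not listed here. Genes no more than 0.1 beyond these distances made up 0.0388 to 0.213% of genes for Pfkm, 1.62 to 2.25% for Pfkl and 0.320 to 0.756% for Pfkfb4. These distances are descriptions, with no test, and say nothing of shared control.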

How the data were processed

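RNA of 12 libraries, 3 per genotype and day, was analysed; the methods speak of 2 biological replicates for each condition, and labels and files hold 3, which were all used. Labels of genotype, day and replicate set the groups, and their treatment tag, which tracks genotype and not day, was ignored. The authors deposited raw counts of both d0 groups and of mutant d4 cells, and FPKM for all 12. Their notes name mm10 and DESeq2 1.20.0. Aligner and counter: not given in the sources used here. Deposited FPKM divided by gene length and by a divisor that, within each day, follows DESeq2 size factors, so days were scaled separately. In the WT d4 table the 3 count columns equal the mutant d4 counts for all 24787 genes and were left out. For WT d4, reads were recovered from FPKM in 3 libraries, giving whole reads (within 0.01) for 100.0% of values. Genes missing from a day's table were taken at 0 only for sums of a family. Of 2 entries named Aldoa, the one with the lower Ensembl number was used. Depth was 16098407 to 21412560 reads.

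The tests were edgeR 4.0.16 quasi-likelihood tests (TMM, filterByExpr) on reads and, at d4, limma 3.58.1 on log2(FPKM + 1) for genes at 0.5 FPKM or more in 3 libraries. They were run in R 4.3.3, with Benjamini-Hochberg adjustment over all genes tested. The fits were also run on simulated data whose changes were all larger than the fold threshold, which does not bear on calls near it. Shares were compared by exact permutation. Alternatives were DESeq2 1.42.0, other size factors, no filter, other pseudocounts, quantile normalization, a replicate block, leaving out each library, and no fold threshold. Members and lists were chosen with earlier results of these data known. All members are named. Of other lists, up to 4 called genes per comparison with the largest change are candidates. They needed a mean of at least 5 CPM in the highest of the 4 groups, which need not be a group of that comparison. For the d4 comparison they needed 1 FPKM in the higher of its groups. Likeness took the 3 nearest protein-coding genes of members at 5 CPM or more. Sequences come from RefSeq.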

Additional observations from a re-analysis of the deposited data

Results flagged for a closer look

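The change of Pfkm from d0 to d4 differed between genotypes by an interaction test: mutant minus WT was -1.98 on the log2 scale (SE 0.11, adjusted p = 2.04e-11, edgeR on all 12 libraries), and all 3 mutant d4 libraries lay below all 3 WT d4 libraries. The range with 1 library left out was -2.04 to -1.93. No other member's difference was called, of 8 members tested. Of all 15114 genes tested, 8.68% were called higher and 7.95% lower for this difference.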

How the results depend on the processing

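Of 39 log2 fold changes of members, 31 kept direction and call under every alternative run (dropping the fold threshold apart), 6 turned in direction and 2 changed call (Pfkfb4 and Aldoc at d0, as given above). The 6 were not called, and turned only with 1 library left out, over these ranges: Pfkp at d0, -0.013 to 0.062; Pfkfb2 in WT cells across days, -0.21 to 0.072; Aldoc in WT cells, -0.13 to 0.31; and for the difference of the changes, Pfkp, -0.060 to 0.014, Pfkfb1, -0.47 to 0.61, and Aldoc, -0.41 to 0.00048. Members called higher at d0 numbered 2 in the fit of all 12 libraries and 0 to 2 with 1 library left out. With no fold threshold, members called were 3 higher and 0 lower at d0, 2 higher and 1 lower at d4, 2 higher and 4 lower across days in mutant cells, 1 higher and 4 lower in WT cells, and 1 higher and 3 lower for the difference. All genes called were then 2834 higher and 3330 lower at d0, 3500 and 3886 at d4, 5066 and 5281 across days in mutant cells, 4293 and 4678 in WT cells, and 3315 and 3520 for the difference. At d4, all genes called higher and lower were 497 and 1193 with a pseudocount of 0.1, 70 and 369 with 5, 721 and 1537 with edgeR on reads, and 690 and 1760 with DESeq2 on reads, against 233 and 792. As shares of reads, not divided by gene length, the Pfkm difference was -2.53 points between genotypes at d0, 13.5 points across days in mutant cells and 44.6 in WT cells, against -5.49, 24.9 and 52.9. Same-numbered replicates correlated at -0.288 to 0.0423 over the 4 comparisons of groups, and different-numbered ones at -0.152 to 0.236. With 3 libraries per group these correlations cannot decide whether the numbers pair samples. With the number as a replicate block the Pfkm change was -2.03 at d4, and no member's call changed. Pfkfb1 and Aldoc rest on few reads, which limits the precision of their values.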

Other observations

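AMPK, the energy sensor that phosphorylates PFKFB2 and PFKFB3, was covered by 7 subunit genes. Prkag3, the muscle gamma subunit, was called lower in mutant cells at d0 (log2 fold change -2.0, adjusted p = 4.23e-04, edgeR) and at d4 (-3.60 on the log2(FPKM + 1) scale, adjusted p = 2.70e-08, limma), and Prkaa2, the muscle catalytic subunit, at d4 (-1.20, adjusted p = 3.37e-05). No other subunit gene was called at these days (all genes 3.03% higher and 9.21% lower at d0, 1.76% and 5.98% at d4).

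Of 16 hypoxia-inducible genes, 0 was called higher and 0 lower in mutant cells at d0 with edgeR (all genes 3.03% and 9.21%), as with DESeq2. By adjusted p alone 4 were higher and 6 lower at d0 (all genes 20.4% and 23.9%), and at an unadjusted p under 0.05, 4 and 7 (24.4% and 27.7%). At d4, 4 were higher and 7 lower by adjusted p alone (26.4% and 29.3%). Of these, 1 was called higher, Mxi1 (1.11), and 2 lower, Egln3 (-2.31) and Vegfa (-1.28), with limma on the log2(FPKM + 1) scale (all genes 1.76% and 5.98%).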
